A study of Homo sapiens with 6 samples.

Results

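The USP17L and DUX4 tandem arrays of chromosomes 4 and 10 were examined in 3 windows of the genome build hg38 (GRCh38). The windows were chr4:9100001-9500000, which holds the USP17L array, chr4:190000001-190210000, which holds DUX4 and its repeats, and chr10:133600001-133800000, the homologue of the DUX4 region. All H3K9me3 peaks touching these windows were taken, and so were the gene bodies of USP17L5, USP17L19, USP17L20, USP17L25, USP17L26, USP17L30 and DUX4. H3K9me3 is trimethylation of lysine 9 of histone H3, a mark of silent chromatin, and it was mapped by chromatin immunoprecipitation and sequencing in BJ cells, an established human skin fibroblast line. The 3 cell lines were BJ with a control guide (sgCtrl), BJ with PURPL guide 1 (sgRNA-PURPL#1) and BJ with PURPL guide 2 (sgRNA-PURPL#2). All carried CRISPR interference, which represses the gene that a guide RNA points to, here the long non-coding RNA gene PURPL, and each gave 1 H3K9me3 and 1 input library. With 1 library per line there was no replicate check, so no p-value is given.

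On chromosomes 1 to 22 and X the windows held 33 of 22627 peaks of the control, 39 of 14087 of guide 1 and 37 of 11721 of guide 2. The listed genes are 7 of 59098 annotated genes. Windows and genes were picked because their length under peaks was reported not to fall with the guides. The lengths below are therefore a description of how they were chosen and what surrounds them. Sequencing depth of the libraries is unknown, and each list was called separately.

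The USP17L genes encode deubiquitinating enzymes, which remove ubiquitin from other proteins, and most copies stand head to tail in a long array whose number of units varies between people. DUX4 encodes a double homeobox transcription factor that acts in the early embryo, and a copy of it lies in every unit of the D4Z4 repeat near the end of chromosome 4. In somatic cells D4Z4 is held silent by DNA methylation, H3K9 methylation and the chromatin protein SMCHD1, and loss of this silencing leads to facioscapulohumeral muscular dystrophy. A closely related D4Z4 array lies near the end of chromosome 10. FRG2 and FRG2B are related genes beside the arrays of chromosomes 4 and 10.

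Promoter sequences, RefSeq on GRCh38.p14, are shown for DUX4, the coding member of the D4Z4 repeats, and for FRG2, a coding gene of the same window that lies before the repeats, because both promoters lay outside every peak. Each runs from 250 bases before the gene start to 50 bases after it, 5′ to 3′ on the strand of the gene, and capitals mark the 50 bases from the gene start onwards. DUX4 is on the plus strand at chr4:190173524-190173823, and FRG2 on the minus strand at chr4:190027207-190027506.
DUX4: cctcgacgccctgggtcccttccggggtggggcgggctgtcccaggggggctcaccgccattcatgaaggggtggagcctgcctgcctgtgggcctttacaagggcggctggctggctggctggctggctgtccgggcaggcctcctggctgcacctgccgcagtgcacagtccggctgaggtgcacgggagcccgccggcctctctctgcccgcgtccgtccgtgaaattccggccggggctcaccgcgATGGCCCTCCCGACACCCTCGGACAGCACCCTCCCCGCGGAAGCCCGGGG
FRG2: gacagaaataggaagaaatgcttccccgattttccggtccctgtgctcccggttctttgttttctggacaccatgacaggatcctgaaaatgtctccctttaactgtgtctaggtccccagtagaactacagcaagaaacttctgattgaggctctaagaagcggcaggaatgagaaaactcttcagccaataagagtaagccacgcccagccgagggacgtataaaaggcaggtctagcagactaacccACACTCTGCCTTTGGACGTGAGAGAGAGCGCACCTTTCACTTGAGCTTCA
The DUX4 promoter has 73.3% G and C and 25 CpG dinucleotides, against medians of 58.7% and 14 over 34961 promoters. The FRG2 promoter has 49.0% and 9. The FRG2B promoter on chromosome 10 (chr10:133626746-133627045) matches that of FRG2 at 299 of 299 bases when the pair is offset by 1 base. None of the 3 promoters had a base under a peak in any list. How reads that match several places were handled is not given, so a missing peak here does not show that the mark is absent. The nearest peak to the DUX4 promoter lay 3576 bp away in the control, 3546 bp in the guide 1 line and 3593 bp in the guide 2 line. Of the listed genes, DUX4 alone was matched in the promoter table, and the USP17L genes are given by name.

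In the USP17L window the length under peaks was close in all 3 lines: 45.8 kb in the control, 42.8 kb in the guide 1 line and 41.4 kb in the guide 2 line. The guides thus had 93.5% and 90.4% of the control length. Over chromosomes 1 to 22 and X they had 52.4% and 40.3%, and over the rest of chromosome 4, outside the USP17L and DUX4 windows, 52.7% and 44.5%. There were 27 peaks in the control, 32 in the guide 1 line and 33 in the guide 2 line, and the median width was 1140, 950.5 and 891 bp. The share of each list's total peak length that lay in this window came to 0.142% for the control, 0.253% in the guide 1 line and 0.317% in the guide 2 line. Among peaks with a score of at least 22, the median over all 3 lists, the window had 76.2% of the control length in the guide 1 line and 58.8% in the guide 2 line. That limit kept 11031 peaks of the control list, 7578 of guide 1 and 6340 of guide 2. The shares of 52.4% and 40.3% are for all peaks and are not the scale for these values.

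The DUX4 window held 3291 bp under peaks in the control, 4287 bp in the guide 1 line and 2778 bp in the guide 2 line, or 130.3% and 84.4% of the control. These rest on 3, 5 and 2 peaks. The window on chromosome 10 held 4736 bp in the control, 4510 bp in the guide 1 line and 4249 bp in the guide 2 line, or 95.2% and 89.7%, from 3, 2 and 2 peaks. The rest of chromosome 10 had 54.4% and 39.1% of its control length. The 200 kb just before this window had 5569 bp under control peaks, 218 bp under guide 1 peaks and 771 bp under guide 2 peaks, or 3.91% and 13.8%. Taken window by window, coverage was therefore slightly shorter than in the control in 5 of the 6 comparisons, and longer only in the DUX4 window in the guide 1 line. In 2 of these 5 the direction turned under another setting. The chromosome 10 window in the guide 1 line was at 101.97% among peaks with scores at or above the median, and the DUX4 window in the guide 2 line was at 115.6% when peaks within 5000 bp were merged. The lengths as deposited do not bear out the description that coverage does not fall, and the shares left exceed those of the rest of the same chromosomes in both guides.

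**Figure D1:**
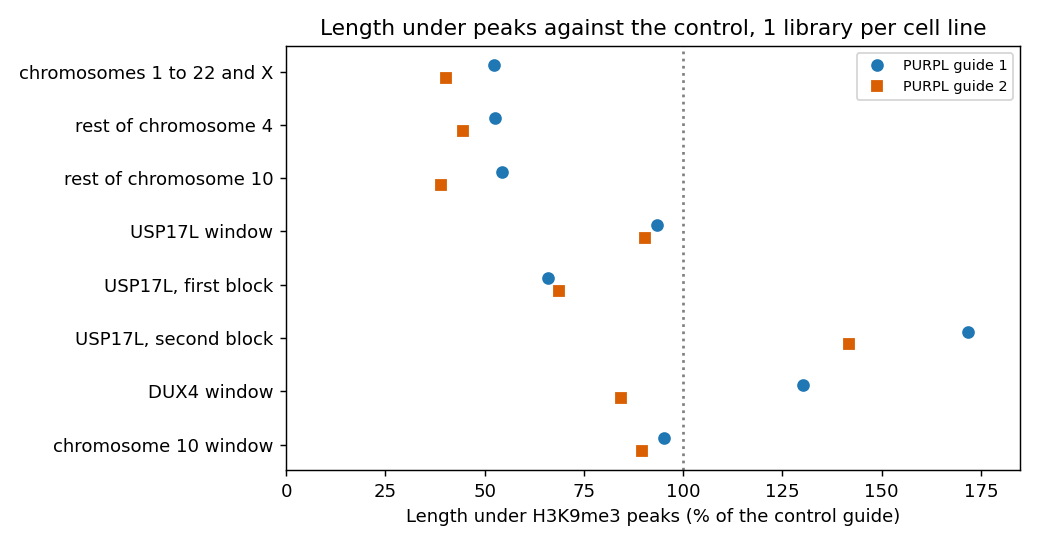
Length under H3K9me3 peaks in each PURPL guide line as a percentage of the control line, for chromosomes 1 to 22 and X, the rest of chromosomes 4 and 10, the 3 windows and both blocks of the USP17L array (circles guide 1, squares guide 2, 1 library each). The 3 windows lie between 84.4% and 130.3%, and the rest of their chromosomes between 39.1% and 54.4%.

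For scale, chromosomes 1 to 22 and X were cut into 7585 tiles of 400 kb, the size of the USP17L window, of which 4157 had a control peak. Length under peaks was not shorter than in the control in 5.17% of these tiles in the guide 1 line, in 2.26% in the guide 2 line and in 0.529% with both. Among the 165 tiles with at least the control length of the USP17L window, the median share left was 59.2% in the guide 1 line and 50.04% in the guide 2 line. Only 1 of the 165, the tile holding the USP17L array itself, kept as large a share as the window in either guide. The window was selected on this contrast, so its place among the tiles is no independent evidence.

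Peaks of the USP17L window lay on the gene blocks of the array or close to their inner edges. The annotation places 23 USP17L genes and pseudogenes there, in a block of 13 (USP17L10 to USP17L22, chr4:9210657-9269211) and a block of 10 (USP17L24 to USP17L6P, chr4:9325165-9369070). The 110.7 kb of the window before the first block and the 130.9 kb after the second had 0 peaks in all 3 lists, and so had the 400 kb on either side of the window. The closest peak outside the window lay 578.4 kb before it in the control, 578.9 kb in the guide 1 line and 5644 kb in the guide 2 line. FAM90A26 and the beta-defensin gene DEFB131A, protein-coding genes inside the window, had no covered base. The same holds for the nearest coding genes outside it, the homeobox gene HMX1 and the urate transporter gene SLC2A9. The stretch between the blocks, 55.95 kb, was covered near its ends only, over 4278 bp in the control, 2856 bp in the guide 1 line and 4144 bp in the guide 2 line. Whether the genome build has known bases in the middle of this stretch was not checked. The missing peaks there therefore do not show that the mark is absent, and the division into blocks is that of the annotation.

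**Figure D2:**
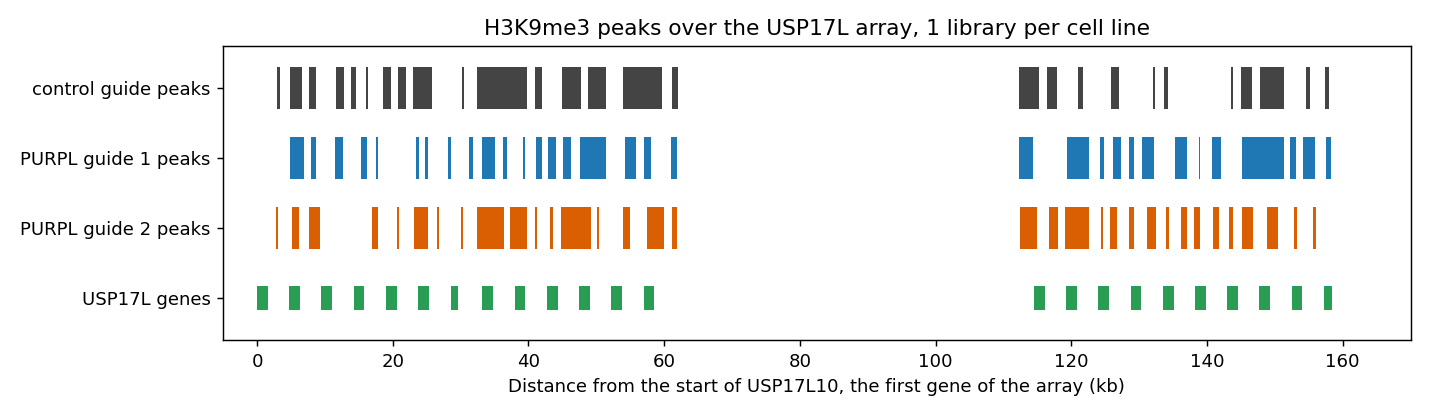
Peaks of the control, guide 1 and guide 2 lists (boxes, drawn to scale) over the USP17L array, with the annotated USP17L genes beneath, by distance in kb from the start of USP17L10. Peaks in every list keep to the gene blocks and their inner edges, and the control has its widest peaks in the first block while both guides cover more of the second. Whether the build has known bases in the empty stretch between the blocks was not checked.

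The blocks differed in direction. Over the first block the control had 29.6 kb under peaks, guide 1 19.5 kb and guide 2 20.4 kb, leaving 65.9% and 68.8%. Over the second the control had 11.9 kb, guide 1 20.4 kb and guide 2 16.9 kb, or 171.9% and 141.9% of the control. In the control 50.6% of the first block and 27.1% of the second were under peaks, whereas guide 1 had 33.4% and 46.5%, and guide 2 had 34.8% and 38.4%. The near-constant length of the whole window is the sum of these opposite differences. Among peaks at or above that score of 22 the second block had 111.4% in the guide 1 line and 65.0% in the guide 2 line, so the direction in the guide 2 line turned. The division into blocks was made after the values were seen. How reads that match several copies were placed is not given in the sources used here, so values of single blocks and copies are uncertain, and the part of such reads was not tested.

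Repeat units were taken from the start of a USP17L gene to the start of the next, which gave 12 units in the first block and 9 in the second. The median unit was 4747 bp in the first block and 4745 bp in the second. The gene body takes up 33.6% of it. In the first block the share of a unit under peaks had a median of 55.8% in the control (range 9.92% to 100%), 25.1% in the guide 1 line (0% to 81.3%) and 30.01% in the guide 2 line (0% to 80.8%). In the second it was 14.8% in the control (0% to 74.3%), 47.4% in the guide 1 line (0% to 81.1%) and 36.2% in the guide 2 line (21.2% to 72.2%). Both guides were below the control in 9 of the 12 units of the first block and above it in 0. In the second block both were above it in 7 of 9 units and below it in 1. The unit that starts at USP17L17 was fully covered in the control, at 52.7% in the guide 1 line and at 80.8% in the guide 2 line. The unit of USP17L28 had no control coverage, with 33.6% under guide 1 peaks and 33.8% under guide 2 peaks.

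**Figure D3:**
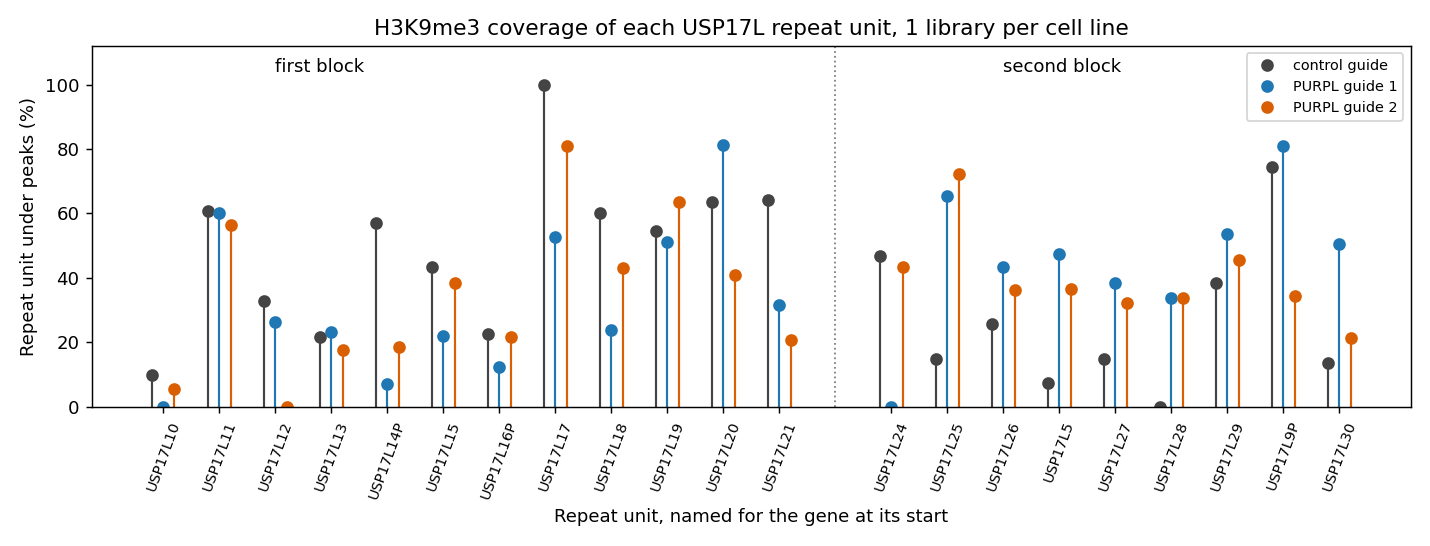
Share of each of the 21 USP17L repeat units under H3K9me3 peaks (y axis, percent), in chromosomal order and named for the gene at the start of the unit, for the control, guide 1 and guide 2 (1 library each). In the first block the control is above both guides in 9 of 12 units, and in the second both guides are above the control in 7 of 9.

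The listed USP17L genes each measure 1593 bp, and each was covered over more bases by both guide lists than by the control list, which is the pattern they were listed for. USP17L25 (chr4:9329911-9331503) was uncovered in the control (0 bp), with 1401 bp in the guide 1 line and its full 1593 bp in the guide 2 line. USP17L20 (chr4:9258124-9259716) had 580 bp in the control, 1440 bp in the guide 1 line and 1593 bp in the guide 2 line, and of the 6 it alone had a control peak. USP17L19 (chr4:9253378-9254970) had 0 bp in the control, 1224 bp in the guide 1 line and 420 bp in the guide 2 line. USP17L20 and USP17L25 carried the longest coverage of the listed copies in each guide line.

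The remaining listed copies were covered over less than 50% of their length in each line. USP17L30 (chr4:9363129-9364721) had 0, 719 and 484 bp in control, guide 1 and guide 2, and USP17L26 (chr4:9334658-9336250) had 0, 618 and 428 bp. USP17L5 (chr4:9339403-9340995) had 0, 455 and 522 bp. The absence of control peaks holds for the gene bodies and not for their surroundings. With 2000 bp added on each side, USP17L20 was shorter than in the control in the guide 1 line (-309 bp) and guide 2 (-646 bp), and USP17L19 and USP17L30 were shorter in the guide 2 line (-381 and -575 bp). The peaks over the listed copies did not stand out by score. At USP17L20 the best peaks scored above 75.2%, 71.9% and 72.2% of the control, guide 1 and guide 2 lists. At USP17L25 the guide 1 peak scored above 42.1% of its list and the guide 2 peak above 57.3%. At USP17L26 the guide 2 peak scored above 1.29% of its list, and at USP17L30 the peaks scored above 33.1% and 19.8%.

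Across all 23 copies, 13 had a peak in the control, 15 in the guide 1 line and 16 in the guide 2 line, and 7 had one in all 3 lists. Among all annotated genes 6.96% had a peak in the control, 3.3% in the guide 1 line and 1.79% in the guide 2 line. Summed over the copies, 13593 bp were covered in the control, 14033 bp in the guide 1 line and 14671 bp in the guide 2 line, with medians per gene of 410, 484 and 484 bp. Coverage was longer in both guides for 7 copies and shorter in both for 5. Of the 13 copies with a control peak, 5 were not shorter in the guide 1 line, 4 in the guide 2 line and 1 with both. Over protein-coding genes with a control peak these shares were 5.82%, 2.3% and 0.728%, a contrast that the choice of windows had used. Beside the 6 listed copies, USP17L28 was longer in both guides, with 0, 277 and 739 bp.

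Copies outside the listed set showed other patterns. USP17L18 was covered in full in the control and in the guide 2 line (1593 bp) and over 287 bp in the guide 1 line. USP17L17 had 1593 bp in the control, 1589 bp in the guide 1 line and 1593 bp in the guide 2 line, so its coverage hardly differed between lines. USP17L22, at the end of the first block, had 1593, 959 and 1082 bp, and the pseudogene LOC124906414 is annotated at the same position. The pseudogene USP17L14P was marked in the control alone (779 bp). USP17L24 and USP17L27 were covered in the control (748 and 701 bp) and in the guide 2 line (475 and 423 bp), and had 0 bp in the guide 1 line. USP17L29 also had 0 bp in the guide 1 line, but was longer in the guide 2 line (655 bp) than in the control (307 bp). USP17L13 and the pseudogene USP17L6P lacked guide 2 peaks, with 410 and 695 bp in the control and 484 and 815 bp in the guide 1 line. USP17L10, USP17L12, USP17L16P and USP17L21 had no covered base in any list. All 4 stand in the first block.

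When the 21 units were laid over each other, the best covered part was the same in all 3 lists, while the profiles differed elsewhere. Of 10 equal parts of the unit, the best covered was that from 60% to 70% of its length, past the gene body, with 54.9% of bases under peaks in the control, 67.9% in the guide 1 line and 55.1% in the guide 2 line. The control was nearly as high in the parts from 40% to 60%, at 51.8% and 51.97%. Guide 2 reached 49.6% from 10% to 20%, inside the gene body, and had 29.8% from 40% to 50%. The part from 80% to 90% was sparsely covered, at 26.9%, 10.6% and 15.9%, the lowest value of both guides. Gene bodies were covered over 34.3% in the control, 37.2% in the guide 1 line and 41.2% in the guide 2 line. The sequence between the genes was covered over 41.8%, 38.9% and 33.9%. The covered share was thus lower in the genes than between them in the control, and higher in the genes for guide 2. Most covered bases lay between the genes in every list, with 28.8% of them in gene bodies in the control, 32.1% for guide 1 and 37.6% for guide 2. The units come from the same 3 libraries and are not replicates.

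**Figure D4:**
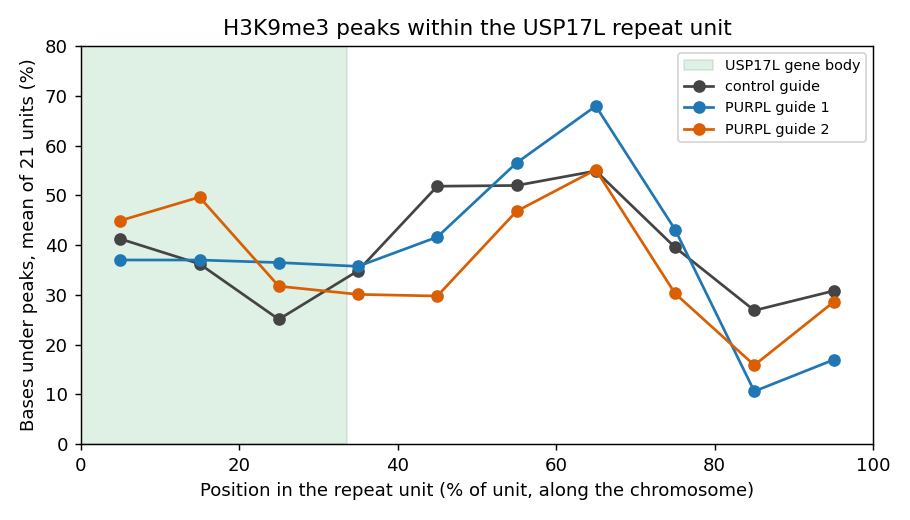
Mean share of bases under peaks (y axis, percent) in 10 equal parts of the USP17L repeat unit (x axis, percent of the unit in the direction of rising coordinates), over 21 units, for the 3 lists. The shaded part is the gene body. All 3 lines are highest between 60% and 70% of the unit, and both guides are lowest between 80% and 90%.

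Peaks of the array were shared between lists at the level of regions and less at the level of bases. Of the 27 control peaks in the USP17L window, 19 overlapped a guide 1 peak (70.4%, exact binomial 95% interval 49.8 to 86.2, counting error only) and 21 a guide 2 peak (77.8%, 57.7 to 91.4). Over all chromosomes these shares were 42.8% and 36.2%. The window was chosen for its kept coverage, so this contrast is no independent evidence. Guide 1 peaks covered 33.4% and 46.5% of the blocks and guide 2 peaks 34.8% and 38.4%. How much overlap such density alone would give was not tested. Neighbouring peaks of 1 library are not replicates. When the overlap had to reach 50% of both peaks, 10 of 27 in the window were shared with guide 1 (37.0%) and 12 with guide 2 (44.4%). Of the 32 guide 1 peaks 22 overlapped a control peak (68.8%), and of the 33 guide 2 peaks 23 did (69.7%). Of the 67479 bp in the window under any peak, 22.9% were under peaks of all 3 lists and 30.2% under peaks of 1 list. In the second block guide 1 peaks covered 65.9% of the control bases and 46.5% of the whole block. Edges of shared peaks differed between lists. Where a control peak overlapped a guide peak, the nearest starts lay a median of 305 bp apart for guide 1 and 164 bp for guide 2, against 224 and 240 bp over all chromosomes. The ends lay 189 and 293 bp apart, against 230 and 251 bp, so neither guide differed from all chromosomes in 1 direction at both edges.

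The USP17L peaks were of middling score in the control and guide 1 lists and lower in the guide 2 list. The score is the authors' own value per peak and was used to rank peaks within a list. The median USP17L peak scored above 60.5% of the peaks in the control list, 62.9% in the guide 1 list and 25.1% in the guide 2 list. The highest-scoring one stood above 89.3%, 93.6% and 75.4%. Of the 33 guide 2 peaks, 13 reached the median score of their list, against 21 of 27 in the control and 23 of 32 in the guide 1 line. The widest peaks were 7305 bp in the control, spanning USP17L17 and USP17L18, 6168 bp in the guide 1 line in the second block and 4282 bp in the guide 2 line in the first.

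At DUX4 the picture was simpler, with a strong peak at nearly the same place in every line. DUX4 (gene ID 100288687, chr4:190173774-190185911, 12138 bp) was covered over 2595 bp in the control, 2848 bp in the guide 1 line and 2778 bp in the guide 2 line, or 21.4%, 23.5% and 22.9% of its length. The main peak lay at chr4:190177399-190179993 in the control, chr4:190177369-190179989 in the guide 1 line and chr4:190177416-190179974 in the guide 2 line. Its start moved by 47 bp between lists and its end by 19 bp. It scored above 99.3% of the control list, 99.4% of the guide 1 list and 99.1% of the guide 2 list. It starts 3625 bp after the gene start in the control, inside the gene body but downstream of the promoter printed above. In every list this start lay beyond 3294 bp, the median spacing of the DUX4 pseudogene copies before DUX4. The stretch of that length from the DUX4 start had no covered base in any list, which does not show that the mark is absent there. The gene table gives no exons, so whether the peak is exonic or intronic was not determined. A second, narrow peak stood further inside the gene in the guides alone, 227 bp wide in the guide 1 line and 219 bp in the guide 2 line, above 98.6% and 94.4% of their lists. This narrow peak makes up most of the excess of guide 1 and all of that of guide 2 over the control.

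The D4Z4 pseudogene copies of the chromosome 4 run carried no peak. How reads that match several copies were placed is not given, so a missing peak does not show that the mark is absent. The run from DUX4L8 to DUX4L2 (8 copies, chr4:190067935-190092289), spaced by a median of 3294 bp, had 0 covered bases in all 3 lists, and so had DBET, a long non-coding RNA gene transcribed next to the repeats. Between DUX4L2 and DUX4 the control had 1 peak of 389 bp, guide 1 had 2 peaks totalling 1168 bp and guide 2 had 0. These were weak, with scores of 16 in the control and 12 and 13 in the guide 1 line, where the lowest score in any list is 10. They account for most of the longer total of guide 1 in the DUX4 window. DUX4L9, an inverted single copy before the array also called DUX4C, had 307 bp under a control peak, 271 bp in the guide 1 line and 0 in the guide 2 line, scoring above 95.6% and 91.5% of their lists. FRG2 and FRG1, the nearest coding gene before the window, had no covered base.

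Chromosome 10 holds 2 annotated runs of DUX4 pseudogenes. On chromosome 4 the annotated run ends 81.5 kb before DUX4, and the strong peak lay inside the annotated DUX4 gene. Whether the genome build has known bases over all of that distance, or between the runs of chromosome 10, was not checked. The run ending in DUX4L20 and the run ending in DUX4L15 each have 6 copies spaced by medians of 3299 and 3309 bp and a shorter copy (DUX4L28 and DUX4L29) in front. Of these 14 pseudogenes 1 had a peak, DUX4L21, over 313 bp in the control alone with a score of 13. The limit on reads that match several copies holds here too. The strong peaks stood past the annotated end of the last copy of each run. The longer copies of these runs have median annotated lengths of 1525 and 1279 bp, against 12138 bp for DUX4. Whether a peak lies inside a gene or past it thus depends on these annotated lengths. After DUX4L20 the peak lay at chr10:133686978-133690374 in the control, chr10:133686943-133690406 in the guide 1 line and chr10:133687104-133690331 in the guide 2 line. It was 3397, 3464 and 3228 bp wide and above 99.3%, 99.2% and 99.2% of the lists. After DUX4L15 it was narrower, at chr10:133762818-133763843, chr10:133762825-133763870 and chr10:133762848-133763868, and above 93.03%, 95.03% and 93.6% of the lists. Neither lies in an annotated gene, and FRG2B and the meiotic gene SYCE1, the nearest coding gene before the window, had no covered base.

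The 3 strong peaks, inside DUX4 and after DUX4L20 and DUX4L15, began about 1 repeat unit after the start of the gene named. Measured from the start of DUX4, DUX4L20 and DUX4L15, the control peaks began at 3625, 3310 and 2961 bp, which is 331 bp more, 11 bp more and 348 bp less than the unit spacing of the run in front. For DUX4 that run is DUX4L8 to DUX4L2, which in the annotation does not adjoin DUX4 and ends 81.5 kb before it. With the guides the offsets were 3595 and 3642 bp at DUX4, 3275 and 3436 bp at DUX4L20 and 2968 and 2991 bp at DUX4L15. The starts of each peak differed by at most 161 bp between lists and the ends by at most 75 bp, both at DUX4L20. In the DUX4 window 55.7% of the bases under any peak were under peaks of all 3 lists, and in the chromosome 10 window 87.5%, against 22.9% in the USP17L window. The repeats of chromosomes 4 and 10 are closely related, and the part of reads that match both places was not tested.

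**Figure D5:**
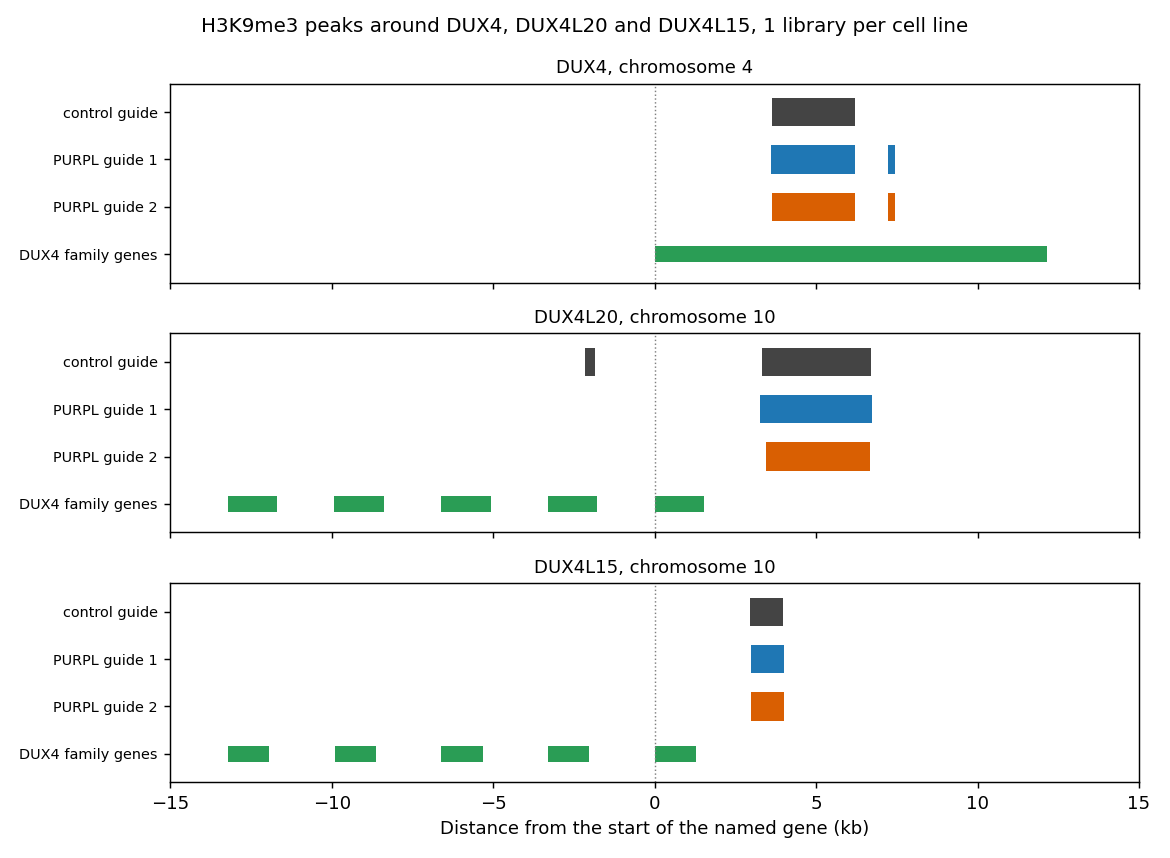
Peaks of the 3 lists around DUX4 on chromosome 4 and around DUX4L20 and DUX4L15 on chromosome 10, with the annotated DUX4 family genes beneath, by distance in kb from the start of the named gene. A peak beginning 2961 to 3642 bp after that start is present in every list. The chromosome 10 repeat copies to the left carry 1 control peak, and the annotated chromosome 4 run ends 81.5 kb before DUX4, outside the panel.

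Members of these families elsewhere in the genome were read the same way. The 6 USP17L genes outside the array had 0 covered bases in all 3 lists. Of 23 DUX4-like pseudogenes elsewhere 1 was marked, DUX4L26 on chromosome 3, with 976 bp in the control, 929 bp in the guide 1 line and 411 bp in the guide 2 line. The 13 genes and pseudogenes of the FRG2 family had no peak. Of 14 genes of the related DUXA and DUXB set, mostly pseudogenes, 3 were marked in the control, 3 in the guide 1 line and 2 in the guide 2 line. Their summed coverage was 9280, 4014 and 2683 bp, leaving 43.3% and 28.9%. Against the shares of all annotated genes given above (6.96%, 3.3% and 1.79%), 1 of 23 is near the background. The 3, 3 and 2 of 14 of the DUXA and DUXB set are above it. These counts are small and are given as values only.

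Genes acting on or downstream of DUX4 were read from lists of known genes. Of 14 genes that silence D4Z4 or act in H3K9 methylation, 3 had a control peak, 1 a guide 1 peak and 1 a guide 2 peak, or 2719, 232 and 268 bp in all. Among all protein-coding genes 13.1% had a control peak, 6.55% a guide 1 peak and 3.73% a guide 2 peak. Of the 2610 coding genes with a control peak, 2417 were shorter in both guides, so a loss was common. SMCHD1, the repressor that binds D4Z4, had a 969 bp overlap in the control and none in either guide line. LRIF1, its partner at the repeats, had 887, 0 and 0 bp, and its control peak scored above 1.54% of the list. These control overlaps are 0.649% and 0.997% of the gene bodies. SETDB1, an H3K9 methyltransferase, had 863, 232 and 0 bp. EZH2, the H3K27 methyltransferase, had 268 bp in the guide 2 line alone, under a peak that scored above 9.76% of its list. Of 31 genes that DUX4 is known to activate or that belong to its embryonic program, among them ZSCAN4, LEUTX and TRIM43, none had a covered base in any list. Of 10 genes active in fibroblasts 9 had none, and the collagen gene COL1A2 had 827 bp in the control alone.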

How the data were processed

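Each of the 3 deposited lists gives peak positions and a score per peak for 1 H3K9me3 library, and the input libraries were not used here. The score is the authors' whole number, on a scale not given in the sources used here, and it served to rank or filter peaks. Per the submitters' processing notes, reads and peaks were handled with MACS2 2.2.9.1, Bowtie2 2.4.2, deepTools 3.5.1 and GATK, on hg38 and GRCh38.p13. No source used here gives the peak-calling settings, the depth or the handling of reads matching several places. Lists were assigned by their samples' labels, since peak names inside them carry other guide names.

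Peaks on chromosomes 1 to 22 and X were kept, and covered length is the number of bases under peaks in a window, gene body or repeat unit. Gene positions came from a RefSeq table of GRCh38.p14, without exons. A shared peak overlapped by at least 1 bp. Covered lengths were checked base by base on 1500 simulated intervals, of which 0 were wrong. Scripts ran in Python 3.11.15 with pandas 2.3.3, numpy 2.4.6 and scipy 1.17.1, and figures were drawn with matplotlib 3.10.9. Windows, genes and gene lists were chosen with earlier results of these data known. Named were the listed genes, other family copies with the longest or shortest coverage or marked in some lists only, and the coding genes in or next to the windows.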

Additional observations from a re-analysis of the deposited data

How the results depend on the processing

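No paired analysis was possible because each cell line has 1 H3K9me3 library. Peaks were restricted to scores at or above the median over all 3 lists or of the own list, to widths of at least 300 bp or, as chosen after seeing the data, to the same number of highest-scoring peaks per list (11721). They were also merged within 1000 or 5000 bp, and windows or genes were widened. The USP17L window with guide 1 stayed between 74.4% and 97.7% of the control. With guide 2 it was 58.8% and 57.4% under the score limits, where 13 of 33 peaks were left, and was 99.4% with equal numbers of peaks. Equal numbers make the 3 lists the same size, so the shares over all chromosomes given above, from all peaks, are not the scale for that value. The second block was 111.4% and 104.6% with guide 1 and turned to 65.0% and 61.0% with guide 2 under the score limits. It was 113.3% with guide 1 and 121.1% with guide 2 when peaks within 5000 bp were merged. The first block ranged from 62.2% to 86.7% with guide 1 and from 49.3% to 86.3% with guide 2. Its highest values came from merging within 5000 bp, so the contrast between blocks was smaller there. The DUX4 window had 3 guide 1 peaks under both score limits, the width limit and equal numbers, and 1 guide 2 peak under the width limit. Merging within 5000 bp gave it 198.3% with guide 1 and 115.6% with guide 2. The chromosome 10 window with guide 1 turned to 101.97% under both score limits and equal numbers. Widened by 50 kb on each side, that window was at 80.9% with guide 1 and 76.2% with guide 2. Sharing of the 33 control peaks of all 3 windows was 72.7% with each guide, and 42.4% with guide 1 and 45.5% with guide 2 under reciprocal overlap of 50%. Of 47 family genes, 16, 17 and 17 had a peak in control, guide 1 and guide 2. These counts became 27, 26 and 26 with 2000 bp added, 7, 8 and 7 when 50% of the gene had to be covered, and 10 for guide 2 at or above the median over all lists. Of the 14 differences between guide and control at listed genes, 10 remained positive with 2000 bp added and 4 turned (USP17L19 -381 bp with guide 2, USP17L20 -309 and -646 bp, USP17L30 -575 bp with guide 2). At or above the median score 10 were positive and 4 were 0. Apart from what the limits remove, the cause was not tested.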

Other observations

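Other families of coding tandem genes were read by symbol (249 genes, with none matched for REXO1L). Together they had 13167 bp under control peaks, 6044 bp in the guide 1 line and 4280 bp in the guide 2 line. That left 45.9% and 32.5% of the control. The TAF11L array is described here because of its values. The TAF11L genes resemble TAF11, a subunit of the general transcription factor TFIID, and stand in a repeat array on chromosome 5. Of 13 members 7 had a peak in the control, 8 in the guide 1 line and 7 in the guide 2 line, and their covered length was 4179, 4107 and 4053 bp. Over all protein-coding genes 13.1%, 6.55% and 3.73% had a peak in these lists. The TAF11L lengths were 98.3% and 97.0% of that in the control. TAF11L3, TAF11L5, TAF11L6 and TAF11L9 were covered over all 597 bp in each line. TAF11L8 was covered in the guide 1 line alone, over 597 bp. Several other tandem families had no peak in any list, among them the PRAMEF genes (23 members), the CT47A genes (12), the GAGE genes (12) and the beta-defensins (39). The FAM90A genes, which lie in clusters near USP17L copies, had a peak at 3 of 21 members in the control, 1 of 21 for guide 1 and 0 of 21 for guide 2, close to those shares of all coding genes. Their covered length was 2400, 160 and 0 bp. The RGPD genes had a peak at 3 of 7 members in the control and at 0 with either guide. The WASH genes had one at 1, 2 and 0 of 6 members in control, guide 1 and guide 2.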
